A study of Bos taurus with 39 samples.

Results

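The miR-10, miR-99/100 and miR-125 families were followed in bovine oocytes during maturation in vitro. The members were taken by name from the known mature miRNAs: bta-miR-10a and bta-miR-10b, bta-miR-99a-5p, bta-miR-99b and bta-miR-100, and bta-miR-125a and bta-miR-125b. They are 7 of the 1995 miRNAs in the count tables, of which 1030 are known and 965 predicted. The names, and not the measured values, decided which miRNAs were included.

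An miRNA guides a silencing complex to messenger RNAs that pair with its seed, the bases near its 5′ end. The miR-10 and miR-99/100 families descend from a common ancestor, and miR-10a and miR-10b lie inside the HOX gene clusters that set position along the body axis, where they are known to act on HOX transcripts. The miR-99/100 family is known for targeting the growth kinase mTOR, and the miR-125 family, the vertebrate relatives of the worm timing miRNA lin-4, for targeting LIN28, the RNA-binding protein that holds back let-7. In vertebrates the miR-99/100, let-7 and miR-125 genes stand side by side in small clusters that hold a member of each family.

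The libraries came from pools of oocytes of slaughterhouse ovaries, and formed 4 groups, each with 3 libraries at 1, 6 and 22 h of maturation. Control oocytes stayed in their cumulus-oocyte complexes, the CBX group did so with carbenoxolone (CBX), a gap junction blocker, in the medium, co-culture oocytes were denuded and shared medium with complexes without touching them, and DO (denuded oocytes) matured without cumulus cells. Cumulus cells of the complexes were removed after maturation, and the zona pellucida of denuded oocytes was removed with pronase. A further 3 libraries are labelled control at 0 h, which gives 39 libraries in 13 conditions. Each library is a pool of whole oocytes, so that a lower value can stand for less of a miRNA in every oocyte or in some of them, and fewer attached cumulus cells and less RNA per cell cannot be told apart.

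Total miRNA counts ranged from 11985 to 175429 per library (median 70069), and the floor of detection, taken as 3 counts, was 17.1 to 250.3 CPM, which are counts rescaled so that each library has an equal total. Floors and intervals of shares allow for counting error only. The floors were computed from the raw totals and not on the normalized scale of the levels, so that they differ somewhat from it. Levels are given as CPM after TMM normalization, which scales libraries to a common composition, and are compared between miRNAs without a length term because mature miRNAs are nearly equal in length. Of the 5 miRNAs listed as linked to granulosa and cumulus cells, bta-miR-212 was at 0 in every library, and the summed level of the list ranged from 2785 to 11155 CPM. The list was highest in the control group at 22 h, with 8552 to 11155 CPM, of which bta-miR-21-5p alone made up 9524, 10310 and 7625 CPM. The blood and immune list of 6 miRNAs reached 3247 CPM in 1 DO library at 6 h, with bta-miR-223 at 2721 CPM. In that library bta-miR-142-5p was at 175.5 CPM, and bta-miR-451, bta-miR-144 and bta-miR-486 were at 0. Its bta-miR-150 was at 351 CPM, below the median of 425.6 CPM over all libraries. The muscle list of 3 reached 12896 CPM in 1 control library at 6 h, with bta-miR-206 at 12791 CPM, bta-miR-1 at 104.8 CPM and bta-miR-133a at 0. No miRNA was fixed as a defining marker of the oocyte.

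A group of 3 libraries stood apart in a way that touches the members. In the third control library at 0 h, the first co-culture library at 1 h and the first CBX library at 1 h, the combined share of bta-miR-99b, bta-let-7e and bta-miR-125a was the highest of all libraries. These 3 miRNAs come from neighbouring genes: in the RefSeq annotation of ARS-UCD2.0, MIR99B, MIRLET7E and MIR125A are consecutive. In the same annotation MIR99A, MIRLET7C and MIR125B-2 are consecutive, as are MIR100, MIRLET7A-2 and MIR125B-1. MIR10B lies between HOXD4 and HOXD8, and MIR10A lies next to HOXB4. The mature bta-miR-125b can come from either of its genes, and its counts do not tell which. The members of a family differ by few bases, and the rule by which the authors counted reads that fit more than 1 of them is not given in the sources used here, so that the division of counts within a family is uncertain to that extent.

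The miR-10 family was the most abundant of the families by far, and almost all of it was bta-miR-10b. The bta-miR-10b count held between 7.59% and 16.9% of the known miRNA counts of a library (median 10.8%). It held a rank of 1 to 3 among the known miRNAs in all 39 libraries and had rank 1 in 1 of them. By contrast, bta-miR-10a held 0.0347% to 0.166% of the known counts and made up 0.319% to 1.49% of the family (median 0.776%).

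Levels of bta-miR-10b were nearly even over the conditions. At 1 h they were 53342, 47283 and 44409 CPM in control oocytes, 36352, 53942 and 40785 with CBX, 33401, 43345 and 39250 in co-culture, and 46527, 50640 and 36847 in DO. At 6 h they were 93186, 50977 and 37703 CPM in control oocytes, 55783, 49956 and 44994 with CBX, 46783, 44850 and 45150 in co-culture, and 49431, 50884 and 45793 in DO. The first control library at 6 h was the highest of all, and it was among the shallowest, with 20180 counts in total. At 22 h the values were 55929, 48570 and 43462 CPM in control oocytes, 59034, 46882 and 44193 with CBX, 58360, 41245 and 45520 in co-culture, and 53001, 45905 and 47367 in DO. The 3 control libraries at 0 h held 41555, 40590 and 49621 CPM. Each condition overlapped the next in the order of means, and the highest mean, 60620 ± 28970 CPM (SD, n = 3) in the control group at 6 h, was 1.57 times the lowest, 38670 ± 4997 (SD, n = 3) in the co-culture group at 1 h. The spread of bta-miR-10b within conditions was an SD of 0.26 on the log2 scale, and 94.7% of the 113 known miRNAs with a median of at least 10 counts had a larger one. Counting error alone would give 0.026 at its median count of 2972.

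The levels of bta-miR-10a were far lower, with a median of 354 CPM, and overlapped in all neighbouring conditions. Its highest mean was 463.0 ± 162 CPM (SD, n = 3) in the control group at 6 h, and its lowest was 244 ± 140 (SD, n = 3) in DO at 6 h. At 1 h it was at 453, 417 and 305 CPM in the control group and at 250, 268 and 218 in DO. The DO libraries all lay below the control libraries, with a log2 fold change of -0.65 ± 0.28 (SE) that did not pass the test (adjusted p = 0.969). At 4 to 47 counts per library, its within-condition SD of 0.55 (log2) compares with 0.30 expected from counting at its median of 23.

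**Figure D1:**
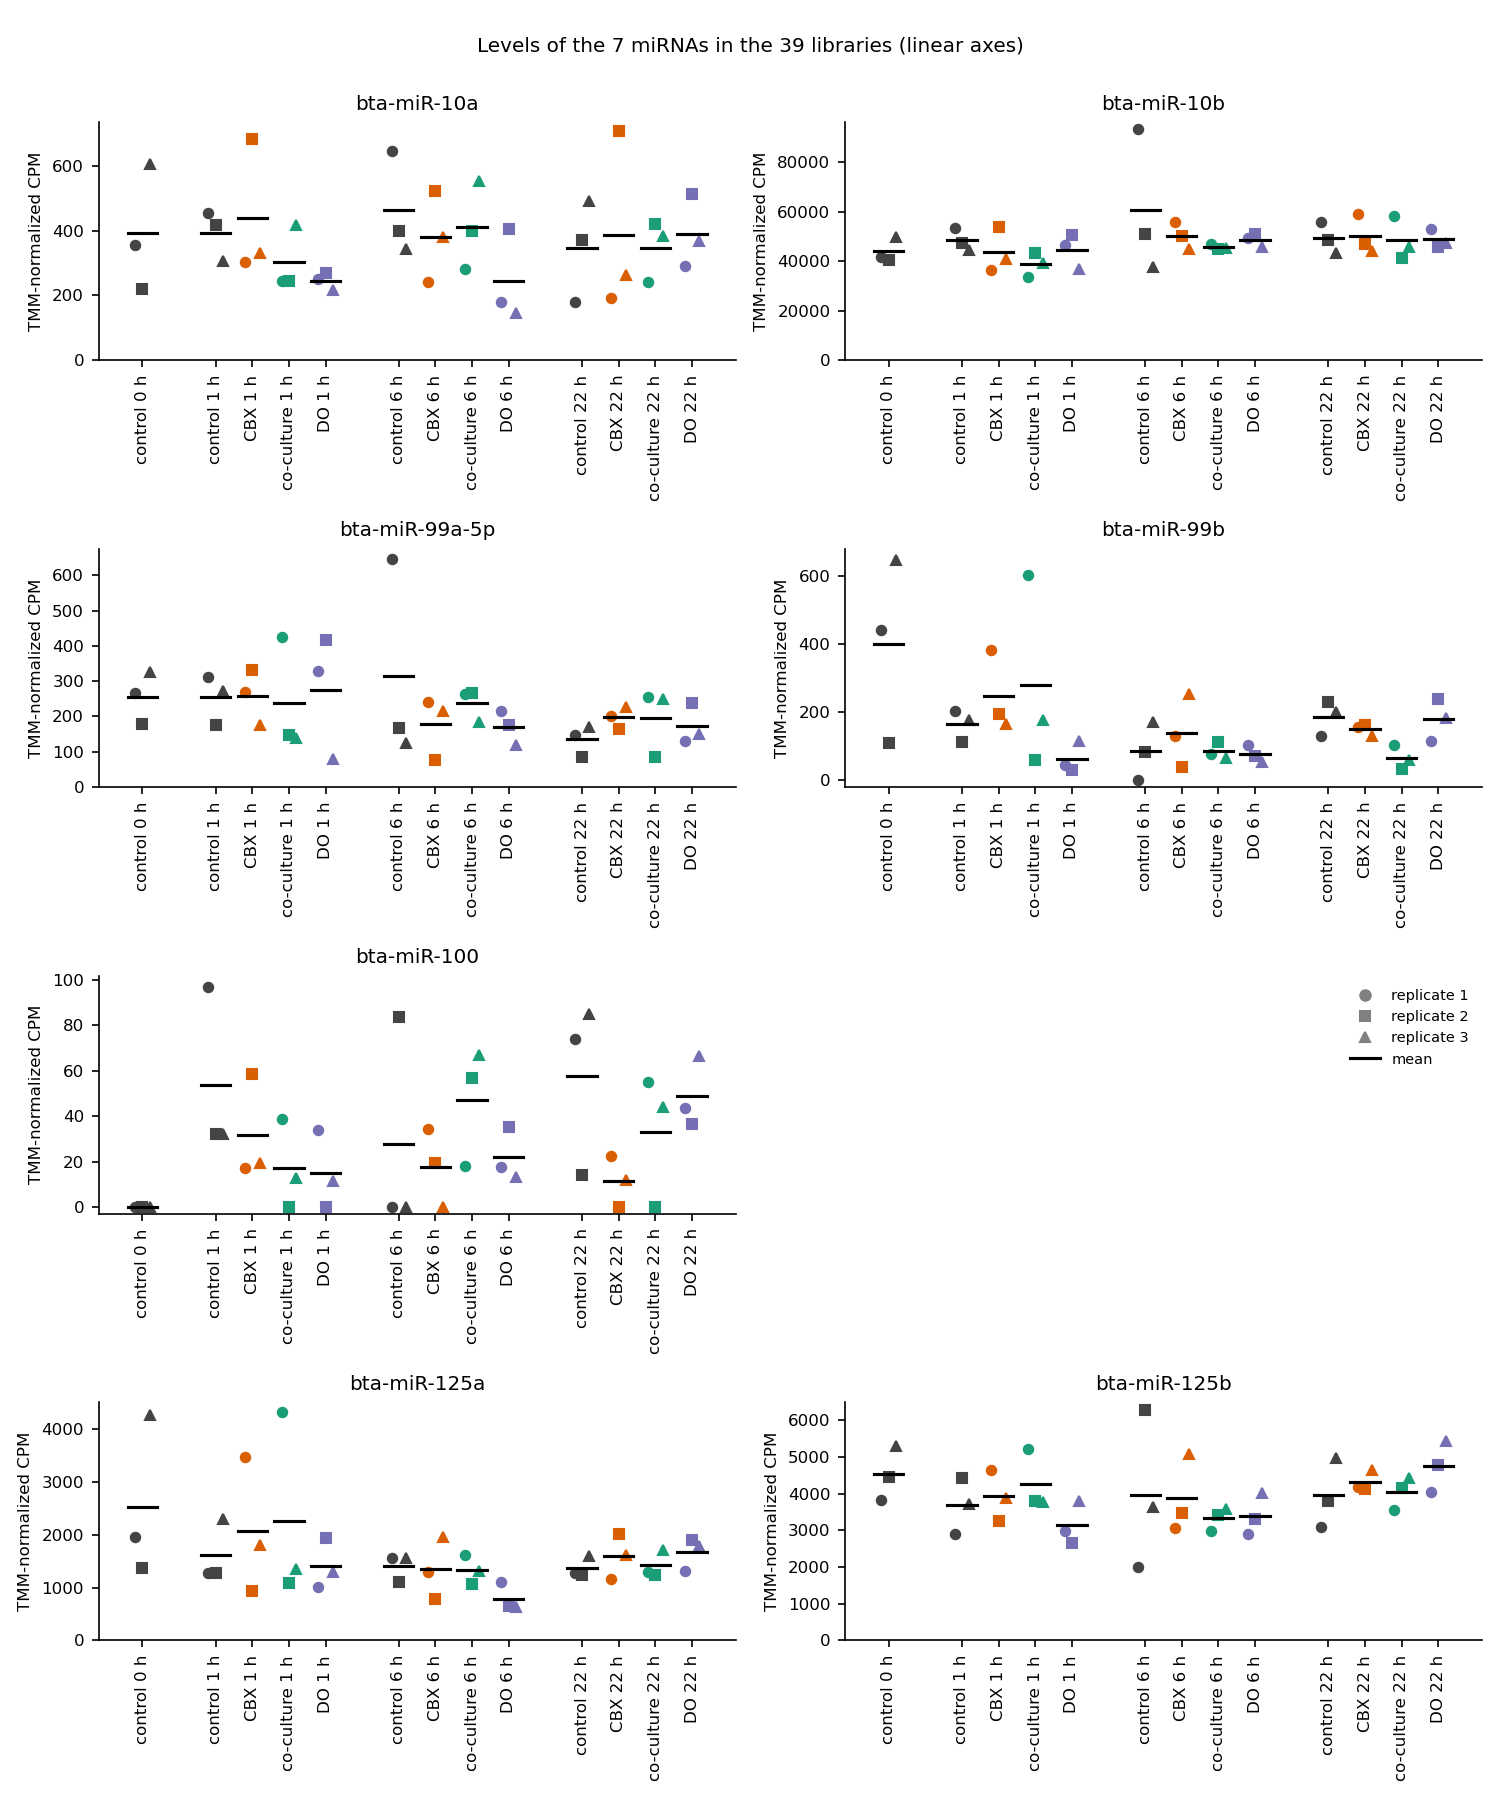
Levels of the 7 miRNAs in TMM-normalized CPM (vertical axes, linear) in the 13 conditions (horizontal axes), with 1 point per library, a marker shape for each replicate number and a bar at the mean of 3 libraries. The panel of bta-miR-10b runs from 33401 to 93186 CPM with 1 library above the rest, and the panels of bta-miR-125a and bta-miR-99b show the high libraries at 0 and 1 h.

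The miR-125 family came next, with 0.646% to 2.37% of the known counts (median 1.24%). The more abundant member was bta-miR-125b, at 1994 to 6270 CPM (median 3809), and bta-miR-125a was at 626 to 4323 CPM (median 1309). Within conditions bta-miR-125b varied less, with an SD of 0.33 on the log2 scale against 0.57 for bta-miR-125a. Counting error at the median counts would give 0.086 and 0.14.

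For bta-miR-125a the levels at 1 h were 1274, 1281 and 2298 CPM in control oocytes, 3463, 937 and 1798 with CBX, 4323, 1086 and 1353 in co-culture, and 1011, 1935 and 1296 in DO. At 6 h they were 1563, 1111 and 1563 CPM in control oocytes, 1302, 791 and 1966 with CBX, 1619, 1064 and 1309 in co-culture, and 1102, 649 and 626 in DO. The 3 DO libraries at 6 h lay below all control libraries of that time, and the highest of them overlapped the CBX and co-culture libraries. At 22 h the levels were 1282, 1231 and 1598 CPM in control oocytes, 1169, 2012 and 1617 with CBX, 1298, 1240 and 1720 in co-culture, and 1307, 1905 and 1785 in DO. The 0 h libraries were at 1949, 1366 and 4261 CPM. The 4 groups overlapped at 22 h, where the range was the narrowest of the time points with 12 libraries, 1169 to 2012 CPM. The highest condition mean, 2525 ± 1531 CPM (SD, n = 3) in the control group at 0 h, was 3.19 times the lowest, 793 ± 268 (SD, n = 3) in DO at 6 h, and these 2 conditions did not overlap, although all 12 neighbours in the order did.

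For bta-miR-125b the levels at 1 h were 2893, 4421 and 3728 CPM in control oocytes, 4638, 3260 and 3887 with CBX, 5211, 3795 and 3780 in co-culture, and 2986, 2650 and 3795 in DO. At 6 h they were 1994, 6270 and 3641 CPM in control oocytes, 3050, 3471 and 5088 with CBX, 2982, 3421 and 3574 in co-culture, and 2886, 3300 and 4012 in DO. The lowest and the highest library of the whole series were thus replicates of the same condition, the control group at 6 h. The highest was the library with 12791 CPM of bta-miR-206 and the lowest the shallow first library, and the part of either was not tested. At 22 h they were 3082, 3809 and 4963 CPM in control oocytes, 4181, 4134 and 4636 with CBX, 3545, 4155 and 4411 in co-culture, and 4051, 4781 and 5421 in DO, and at 0 h 3810, 4452 and 5300 CPM. The highest mean, 4751 ± 685 CPM (SD, n = 3) in DO at 22 h, was 1.51 times the lowest, 3143 ± 589 (SD, n = 3) in DO at 1 h. DO at 22 h and DO at 1 h did not overlap, although all 12 neighbours in the order did.

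The miR-99/100 family was scarce, with 0.0262% to 0.265% of the known counts. Its most abundant member, bta-miR-99a-5p, was at 77.1 to 647 CPM (3 to 44 counts), and the condition means ran from 313 ± 290 CPM (SD, n = 3) in the control group at 6 h to 135 ± 43.8 (SD, n = 3) in the control group at 22 h. The first of these means rests on 1 library of 12 counts, at 647 CPM, beside 8 counts in each of the others. bta-miR-100 had 95 counts in all 39 libraries together, at most 9 in any, and was at 0 in 10 of them, so that it passed the low-count filter in no comparison. It was at 0 in the 3 control libraries at 0 h, where 3 counts correspond to 250.3, 43.9 and 60.1 CPM before TMM normalization. In the control group at 22 h it was at 74.0, 14.3 and 85.2 CPM (9, 1 and 8 counts), without overlap. With no low-count filter it was called in 0 contrasts.

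The least even member was bta-miR-99b, with a within-condition SD of 0.82 on the log2 scale. Only 11.5% of the 113 known miRNAs compared had a larger one, and counting error at its median of 11 counts would give 0.44. At 1 h it was at 205, 112 and 177 CPM in control oocytes, 383, 195 and 165 with CBX, 605, 58.7 and 177 in co-culture, and 45.4, 29.8 and 115 in DO. At 6 h it was at 0, 83.9 and 172 CPM in control oocytes, 130.2, 38.6 and 253 with CBX, 77.7, 114 and 67.1 in co-culture, and 104.9, 70.2 and 53.3 in DO. The library at 0 is the first control library at 6 h, where 3 counts correspond to 149 CPM before TMM normalization and to 162 CPM after it. At 22 h it was at 132, 229 and 202 CPM in control oocytes, 157, 163 and 132 with CBX, 103, 33.5 and 58.8 in co-culture, and 116, 238 and 184 in DO, and at 0 h 443, 109 and 649 CPM. The highest mean, 400.4 ± 272 CPM (SD, n = 3) at 0 h, was 6.33 times the lowest, 63.3 ± 45.2 (SD, n = 3) in DO at 1 h, but the libraries of these conditions overlapped.

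The summed level of the miR-10 family was highest in the control group at 6 h, at 61080 ± 29130 CPM (SD, n = 3), and lowest in the co-culture group at 1 h, at 38970 ± 5008 (SD, n = 3). The miR-125 sum was highest in the control group at 0 h, at 7046 ± 2178 CPM (SD, n = 3), and lowest in DO at 6 h, at 4192 ± 387 (SD, n = 3). The miR-99/100 sum had the same extremes, 656 ± 346 and 269 ± 76.5 CPM (SD, n = 3). The ratios of highest to lowest mean were 1.57 for miR-10, 1.68 for miR-125 and 2.44 for miR-99/100, and only for miR-125 did the extreme conditions not overlap. Without the first replicate the miR-10 ratio was 1.17, with DO at 6 h highest.

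None of the members passed the threshold for differential expression in any of the 45 contrasts, which were 18 comparisons between groups at 1, 6 and 22 h, 15 between times within a group, 6 contrasts averaged over times or groups, and 6 interactions of group and time. The threshold was an adjusted p under 0.05 with a log2 fold change of 1 or more in either direction (for interactions, the adjusted p alone). Between 4 and 6 of the 7 members passed the low-count filter in a contrast. bta-miR-10a, bta-miR-10b, bta-miR-125a and bta-miR-125b were tested in all 45, bta-miR-99a-5p in 44, bta-miR-99b in 28 and bta-miR-100 in 0. Of these 252 tests edgeR's quasi-likelihood test called 0, and 15 had an unadjusted p under 0.05. DESeq2 also called 0 of 252, with 10 under 0.05, and the newer quasi-likelihood fit of edgeR called 1.

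In the contrasts averaged over conditions, which use all libraries in a single fit, 598 miRNAs were tested, and 0 of the 6 members tested were called in each. The share called among all 598 was 0.0% for each of the 3 groups against the control group, 0.167% for 6 h against 1 h, 0.0% for 22 h against 6 h and 0.836% for 22 h against 1 h. Of the 36 member tests 4 had an unadjusted p under 0.05, or 11.1%, against 11.0% of all tests. The interval of bta-miR-10b was narrow throughout: in CBX against the control group its log2 fold change was -0.12 ± 0.11 (SE), with a 95% interval from -0.34 to 0.11, and in DO against the control group -0.14 ± 0.11, from -0.36 to 0.09. A change of bta-miR-10b by 1 on the log2 scale lay outside the interval in each of the 6 contrasts, as it did for bta-miR-125b, whose values ran from -0.06 to 0.23.

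In co-culture against the control group, bta-miR-10b was lower by a log2 fold change of -0.24 ± 0.11 (SE, adjusted p = 0.746), which was -0.05 without the first replicate and -0.09 without the 3 shallowest libraries. At 6 h against 1 h it was higher, 0.21 ± 0.096 (SE, adjusted p = 0.327), and 0.01 without the first replicate. In the same contrast bta-miR-125a was lower, -0.59 ± 0.22 (SE, adjusted p = 0.191), and bta-miR-99b was lower, -0.71 ± 0.34 (SE, adjusted p = 0.356). These 2 values were -0.21 and -0.30 without the 3 libraries that were highest in the MIR99B cluster, 2 of which are 1 h libraries. The 3 libraries were picked by a share that includes both miRNAs, so that smaller changes without them are partly fixed by the choice. None of the 4 fold changes passed the threshold.

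In DO against the control group all 6 members tested had values below 0, with a median of -0.18 against -0.005 over all 598 miRNAs, of which 49.3% were above 0. None passed the test, and with the known miRNAs alone 5 of 6 were below 0, as were 4 or 5 when a replicate was left out. The lowest values were those of bta-miR-99b, -0.61 ± 0.40 (SE, adjusted p = 0.795), and bta-miR-10a, -0.47 ± 0.25 (SE, adjusted p = 0.779). The medians of the members were 0.05 in CBX and -0.08 in co-culture, beside 0.009 and -0.02 over all miRNAs. The 3 contrasts share the control libraries.

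**Figure D2:**
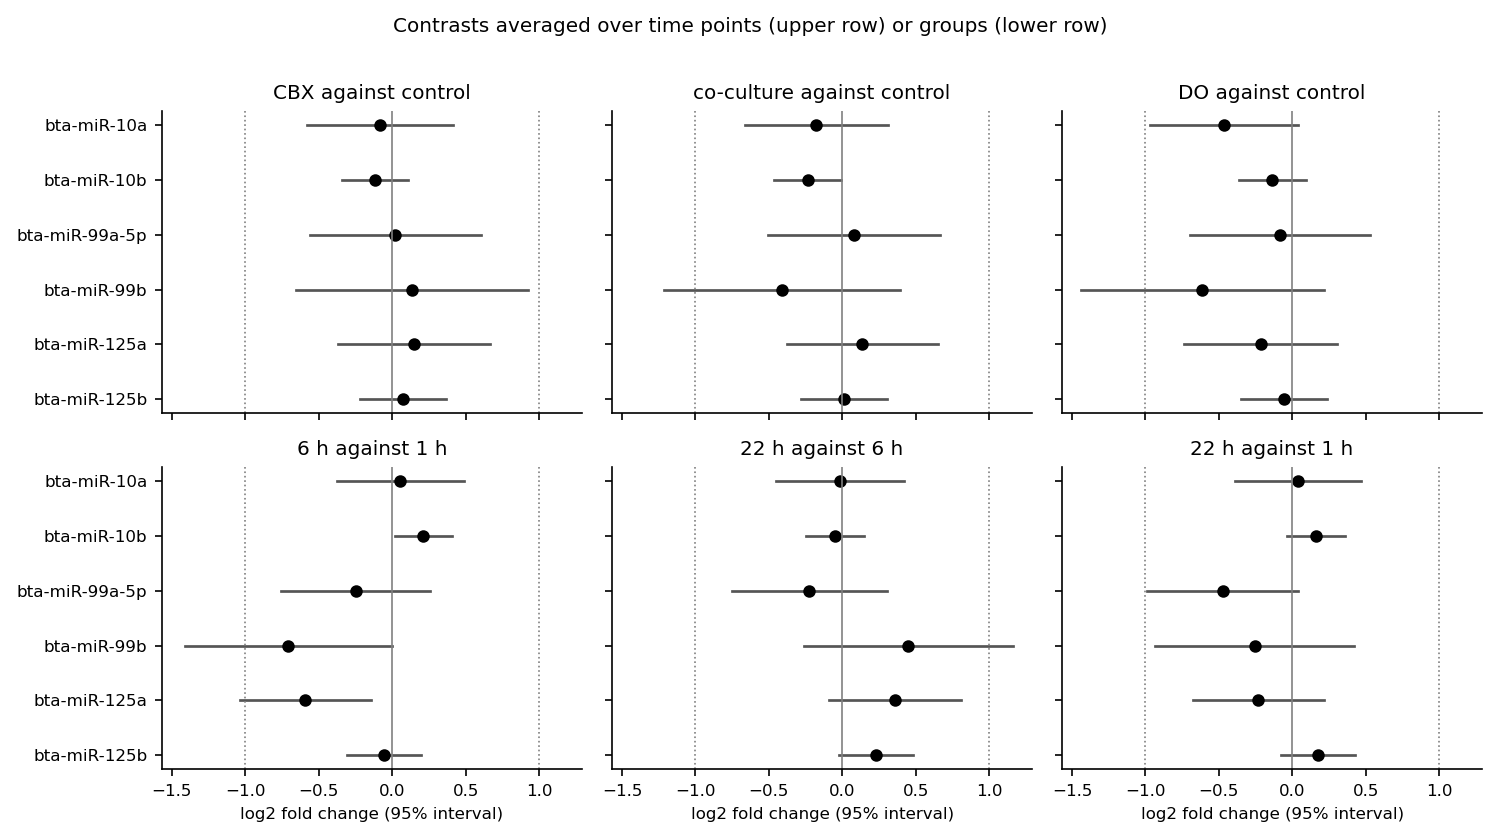
Log2 fold changes (points, horizontal axes) with 95% intervals (lines) of the 6 members tested, for each group against the control group over 1, 6 and 22 h (upper panels) and for times over the 4 groups (lower panels). Dotted lines mark a log2 fold change of 1 in either direction. The intervals of bta-miR-10b and bta-miR-125b stay inside the dotted lines in all 6 panels, and those of bta-miR-99b are the widest.

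In the 18 comparisons between groups, 0 of 97 member tests were called. Over all miRNAs tested the share called was 1.46% for DO against CBX at 1 h, 2.35% for DO against CBX at 6 h, 0.473% for DO against co-culture at 6 h, 0.216% for co-culture against control at 22 h, 0.232% for DO against CBX at 22 h, and 0.0% in the other 13. An unadjusted p under 0.05 was found in 6 member tests (6.19%), against 5.24% of all tests. The libraries of the groups did not overlap in 6 member tests (6.19%), against 8.07% of all tests. Both shares were near those of all miRNAs.

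Of the members, bta-miR-99b in DO against CBX at 1 h came closest to the threshold. It passed the low-count filter there through the CBX libraries, the group in which it was high. In DO against the control group and against co-culture at 1 h it did not pass the filter and was not tested. The DO libraries were at 45.4, 29.8 and 115 CPM, with 4, 1 and 10 counts, and the CBX libraries at 383, 195 and 165 CPM, with 44, 10 and 17 counts, without overlap. The log2 fold change was -1.80 ± 0.54 (SE, adjusted p = 0.0588), lower in 3 of 3 pairs. Without the first replicate, which holds the CBX library high in the MIR99B cluster, it was -1.02, and without replicate 3 it was -2.95 and passed the threshold. Without the replicate block the adjusted p was 0.994. An exact permutation test, two-sided, returned p = 0.1, below which 3 libraries against 3 cannot go.

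At 6 h, the low bta-miR-125a of DO was compared with each of the other groups. The log2 fold change was -0.92 ± 0.32 (SE, adjusted p = 0.821) against the control group, -0.67 ± 0.28 (SE, adjusted p = 0.303) against CBX and -0.78 ± 0.22 (SE, adjusted p = 0.121) against co-culture, and DO was lower in 3 of 3 pairs each time. None of these comparisons passed the threshold, and they share the DO libraries. Without the third replicate the value against CBX was -0.25. In DO against co-culture at 6 h, bta-miR-10a was at 181, 404 and 147 CPM beside 281, 399 and 554 CPM, a log2 fold change of -0.81 ± 0.31 (SE, adjusted p = 0.369) that was -0.33 without the third replicate.

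At 22 h, bta-miR-99b was lower in the co-culture group, at 103, 33.5 and 58.8 CPM (15, 2 and 4 counts), than in the control group, at 132, 229 and 202 CPM (16, 16 and 19 counts). Here too it passed the low-count filter through the group in which it was high, the control group. The groups did not overlap, and the log2 fold change of -1.29 ± 0.45 (SE, adjusted p = 0.375) did not pass the threshold. It was -0.84 without the second replicate and -2.18 without the first. The summed list of granulosa and cumulus miRNAs was 4825 to 7021 CPM in these co-culture libraries and 8552 to 11155 CPM in the control libraries, mostly as bta-miR-21-5p, at 6389, 4289 and 4690 CPM and at 9524, 10310 and 7625 CPM. The other members of the list with counts overlapped between the 2 groups. bta-miR-202 was at 378, 402 and 412 CPM in co-culture and at 345, 630 and 682 CPM in the control group. bta-miR-132 was at 179, 83.8 and 88.2 CPM and at 148, 129 and 107 CPM, and bta-miR-224 at 75.6, 50.3 and 103 CPM and at 32.9, 85.9 and 138 CPM. The part of the list in the result was not tested.

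In the 15 comparisons between times, 0 of 83 member tests were called. The share called among all miRNAs tested was 0.44% in the control group at 22 h against 1 h, 0.227% in CBX at 22 h against 6 h, 1.81% in DO at 22 h against 1 h, and 0.0% in the other 12. An unadjusted p under 0.05 was found in 4 member tests (4.82%), against 6.65% of all tests. The libraries did not overlap in 9 member tests (10.8%), against 11.5% of all tests. Again both shares were near those of all miRNAs.

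Of these 4 tests, 3 were in DO at 22 h against 6 h. bta-miR-125a was at 1307, 1905 and 1785 CPM at 22 h and at 1102, 649 and 626 CPM at 6 h, a log2 fold change of 1.05 ± 0.32 (SE, adjusted p = 0.294). bta-miR-125b was at 4051, 4781 and 5421 CPM and at 2886, 3300 and 4012 CPM, a log2 fold change of 0.47 ± 0.15 (SE, adjusted p = 0.294). Both were higher in 3 of 3 pairs without overlap, and neither passed the threshold. With libraries scaled by their deduplicated reads, which moved the median of all miRNAs in this comparison by -0.41, the values were 0.66 and 0.06. bta-miR-10a had 0.72 ± 0.29 (SE, adjusted p = 0.429), 0.34 with that scaling. The 4th was bta-miR-99a-5p in the control group, at 148, 85.9 and 170 CPM at 22 h beside 313, 176 and 273 CPM at 1 h, a log2 fold change of -0.96 ± 0.36 (SE, adjusted p = 0.441). The summed granulosa and cumulus list was 8552 to 11155 CPM in these 22 h libraries and 4068 to 6832 CPM in the 1 h libraries. Its members did not move together: bta-miR-21-5p was at 9524, 10310 and 7625 CPM at 22 h and at 5634, 3236 and 3872 CPM at 1 h, but bta-miR-202 was at 345, 630.0 and 682 CPM at 22 h and at 1004, 657 and 1526 CPM at 1 h. The part of the list in the value of bta-miR-99a-5p was not tested.

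In the 6 interactions 0 of 36 member tests were called, against 0.0% of all miRNAs tested in each. An unadjusted p under 0.05 was found in 1 member test (2.78%), against 4.1% of all tests. It was bta-miR-99b in the change from 1 to 22 h in co-culture against that in the control group, at -2.09 ± 0.88 (SE, adjusted p = 0.999). It was -0.80 without the 3 libraries highest in the MIR99B cluster, 1 of which is a co-culture library at 1 h. Those libraries were picked by a share that includes bta-miR-99b, so that a smaller value without them is partly fixed by the choice.

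Within the miR-125 family, bta-miR-125a held 13.5% to 45.3% of the counts (median 26.8%). This share is a ratio within a library and needs no scaling. The extremes were the third DO library at 6 h, at 13.5% (Wilson 95% interval 10.3% to 17.5%), and the first co-culture library at 1 h, at 45.3% (41.8% to 48.9%). Replicates of a condition differed beyond counting error: in the control group at 6 h the shares were 43.9% (32.6% to 55.9%), 15.1% (11.7% to 19.2%) and 30.03% (25.4% to 35.2%).

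The mean share at 22 h was 26.05% ± 2.88 (SD, n = 3) in control oocytes, 26.8% ± 5.5 with CBX, 25.9% ± 2.6 in co-culture and 25.9% ± 2.3 in DO. At 1 h it was 30.4% ± 7.8 (SD, n = 3) in control oocytes, 32.2% ± 10.2 with CBX, 31.3% ± 12.3 in co-culture and 31.0% ± 9.7 in DO. The means of the other groups lay at most 0.763 percentage points from that of the control group at 22 h and at most 1.84 points from it at 1 h, less than the spread between replicates. At 6 h the control mean was 29.7% ± 14.4 (SD, n = 3), beside 25.4% ± 6.1 with CBX, 28.6% ± 5.9 in co-culture and 19.2% ± 7.5 in DO. DO was 10.5 points below the control group, the largest of the 9 differences, but it was higher in 1 of 3 pairs. An exact permutation test, two-sided, returned p = 0.3 for it, and over the 9 comparisons the p ranged from 0.3 to 1.0, all with an adjusted p of 1.0, where the smallest p possible is 0.1.

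**Figure D3:**
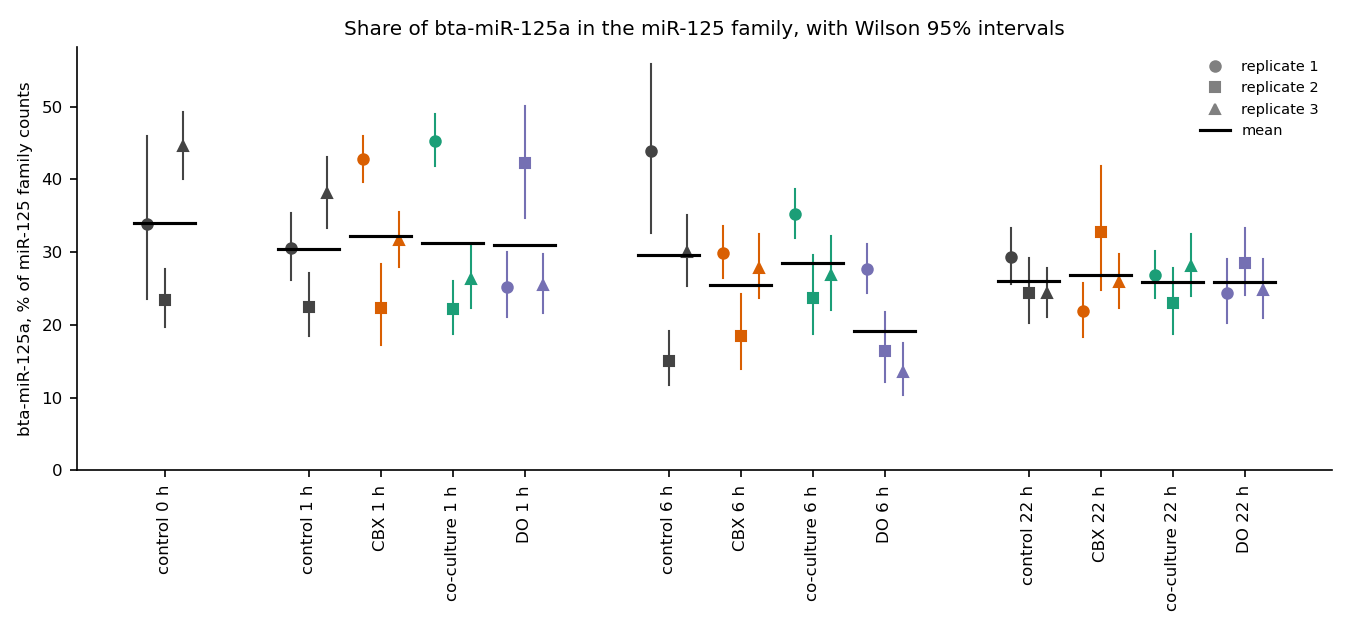
Share of bta-miR-125a in the counts of bta-miR-125a plus bta-miR-125b (vertical axis, percent) in the 13 conditions, with 1 point per library, its Wilson 95% interval as a line (counting error only) and a bar at the mean of 3 libraries. The shares run from 13.5% to 45.3%, replicates spread widely at 0, 1 and 6 h, and the means at 22 h are nearly equal.

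The members were then set beside the miRNAs of neighbouring genes. In the third control library at 0 h, the first co-culture library at 1 h and the first CBX library at 1 h, bta-miR-125a was at 4261, 4323 and 3463 CPM, while the other 36 libraries reached at most 2298 CPM. bta-let-7e was at 5105, 1608 and 2436 CPM in them, beside a median of 746 and a maximum of 1940 in the other 36, and bta-miR-99b was at 649, 605 and 383 CPM, beside a median of 115 and a maximum of 443. Each of these 3 libraries was thus above all the others in bta-miR-125a, and among the 5 highest in bta-let-7e and bta-miR-99b. The libraries were picked by the combined share of these 3 miRNAs, so that high values in them are partly fixed by the choice. bta-miR-125b, which comes from other genes, was at 5300, 5211 and 4638 CPM beside a median of 3795. Of the granulosa and cumulus list, bta-miR-202 was at 1644, 1158 and 1584 CPM in the 3 libraries beside a median of 525, with ranks 1, 5 and 2. The rest did not follow evenly: bta-miR-224 had ranks 2, 7 and 9, and bta-miR-21-5p ranks 20, 12 and 5. bta-miR-132 was at 346, 154 and 122 CPM. The whole granulosa and cumulus list, 4 of whose 5 miRNAs had counts, summed to 6554, 6485 and 8544 CPM in these libraries and to 2785 to 11155 CPM in the others, with a median of 5053. Its part in the high values was not tested.

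Over the 39 libraries, which also share their depth and composition within each library, Spearman's rho of bta-miR-125a was 0.59 with bta-let-7e and 0.52 with bta-miR-99b. Pearson's r on log2 CPM was 0.72 with bta-let-7e, and 0.60 without the 2 libraries farthest from the median of bta-miR-125a. With bta-miR-99b it was 0.62, and 0.64 without the 2 libraries farthest from the median of bta-miR-99b. Without the 3 high libraries, r was 0.49 with bta-let-7e and 0.36 with bta-miR-99b. bta-miR-99b and bta-let-7e had an r of 0.40, which was 0.02 without the 3 high libraries. These libraries were picked by the combined share of the same 3 miRNAs, so that a lower r without them is partly fixed by the choice. For bta-miR-125b and bta-let-7c rho was 0.68 and r 0.59, or 0.58 without the 3 libraries. By contrast bta-miR-99a-5p, whose gene lies beside that of bta-let-7c, had a rho of -0.13 with bta-let-7c and of -0.21 with bta-miR-125b. These values describe the libraries and carry no test.

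**Figure D4:**
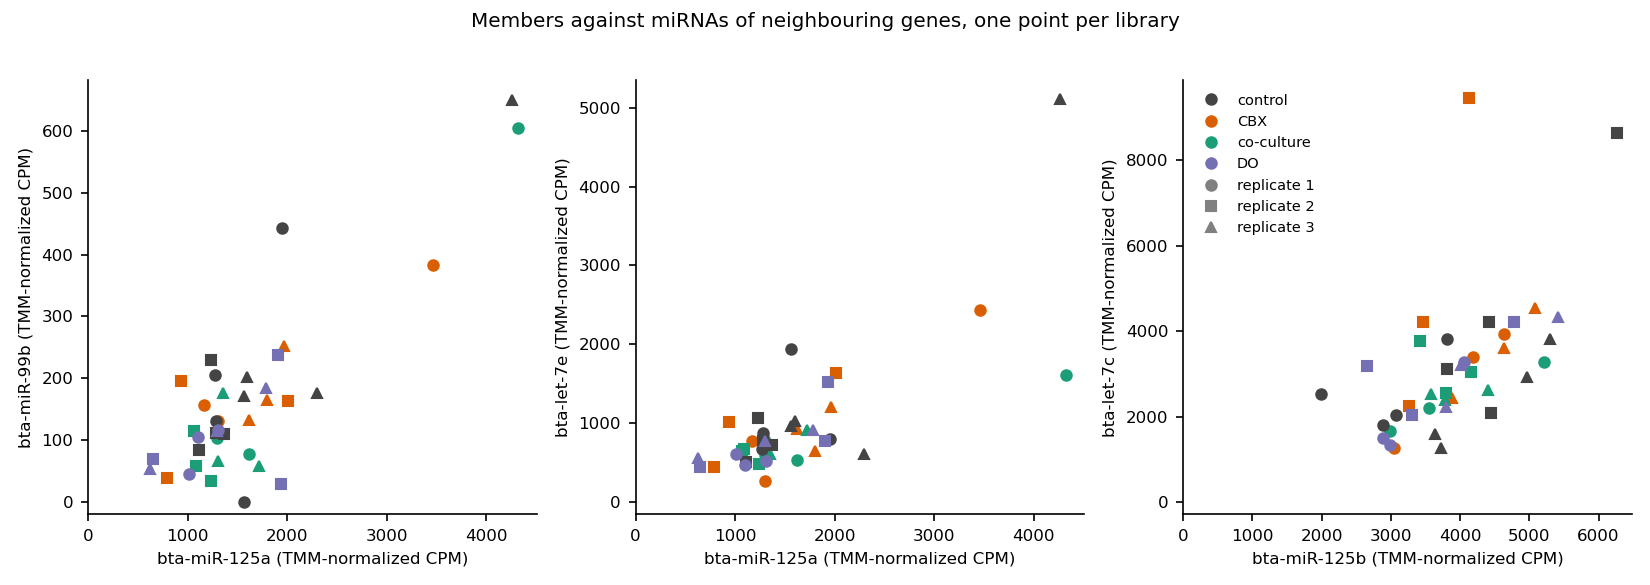
Levels (TMM-normalized CPM, linear axes) of bta-miR-125a against bta-miR-99b and bta-let-7e, and of bta-miR-125b against bta-let-7c, with 1 point per library, colours for the groups and marker shapes for the replicate numbers. The 3 libraries at the right of the first 2 panels have bta-miR-125a between 3463 and 4323 CPM, and all others lie at or below 2298 CPM.

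None of the 3 let-7 neighbours was called in any of the 45 contrasts. The other arm of the bta-miR-99a hairpin, bta-miR-99a-3p, had 13 counts in 10 libraries. Other miRNAs known from the HOX clusters were scarce, with 80 counts for bta-miR-196a, 11 for bta-miR-196b and 0 for bta-miR-615 in all 39 libraries, beside 141300 for bta-miR-10b and 970 for bta-miR-10a.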

How the data were processed

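Small RNA libraries of 39 pools of bovine oocytes were analysed. The authors trimmed the reads, removed duplicates by unique molecular identifier with UMI-tools, checked them with FastQC 0.11.9, aligned them to ARS-UCD1.2 and counted known and predicted miRNAs with miRPro, and the deposited values are these whole-number counts per mature miRNA, without normalization. The UMI-tools version is given as 1.1.2 in the submitters' processing notes. Deduplicated read totals for 1 alternative came from the study's library statistics. Groups and replicate numbers came from the labels.

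The known and predicted tables were joined. Comparisons used edgeR 4.0.16 (limma 3.58.1, R 4.3.3) with TMM, filterByExpr (minimum count 10, minimum total 15), the quasi-likelihood F-test in its edgeR 3 form, Benjamini-Hochberg adjustment over all miRNAs tested, and the replicate number entered as a block. Single comparisons were fitted on their own 6 libraries, and averaged contrasts and interactions on all 39. A log2 fold change is the first-named group or time over the second, its standard error is its size over the square root of F, and intervals cover 95%. The family shares were compared by exact permutation tests. The procedures were tested on simulated data. Nothing in the labels says that the libraries of a condition came from separate cultures beyond their replicate numbers. The paper's methods describe an experiment that was repeated, with repeats pooled before RNA isolation, and do not link a repeat to a library. The p-values measure the spread between these libraries.

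All 7 members were named, and a fold change was counted as named where it passed the threshold or had an unadjusted p under 0.05. Some other fold changes of members are printed as description, and they are not among the named fold changes followed under the alternatives. The members and lists were chosen with earlier results of these data known. Replicate numbers were assumed to mark ovary pools, which the authors modelled as a batch effect. Neither the labels nor the paper's methods link a number to a pool, so this remains an assumption. Deviations of same-numbered libraries from their condition means correlated by -0.16 to 0.64 (median 0.25 over 99 pairs), and by over 0.1 in every pair in 19 of 33 comparisons. Alternatives changed the block, the scaling, the low-count filter, the tool (DESeq2 1.42.0, the newer edgeR fit, its robust option), the set of miRNAs and libraries, and the fold-change threshold.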

Additional observations from a re-analysis of the deposited data

How the results depend on the processing

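All 15 named fold changes kept their sign under all 205 alternative values, and 202 of these stayed on the same side of the threshold; the other 3 were bta-miR-99b in DO against CBX at 1 h, called with the newer edgeR fit (-1.80), with library sizes from deduplicated reads (-2.04, where all miRNAs moved by a median of -0.33) and without replicate 3 (-2.95). The count of members called between groups was 0, and 1 with those settings and with no low-count filter, where bta-miR-99b passed in DO against co-culture at 1 h (-1.997). It ranged from 0 to 1 when a replicate was left out. Between times the count was 0, and 1 with deduplicated reads (bta-miR-99b in co-culture at 22 h against 1 h, -2.12), and it ranged from 0 to 1 without a replicate, the calls being bta-miR-125a in DO at 6 h against 1 h without replicate 1 (-1.33) and bta-miR-99b in co-culture at 6 h against 1 h without replicate 2 (-2.41). The cause was not tested. The averaged contrasts and interactions had 0 members called under all alternatives run, among them DESeq2, DESeq2 size factors, the robust option, known miRNAs alone and no fold-change threshold. Without the replicate block 0 members were called in each of the 4 sets of contrasts, and the pairing changed no call. A fit without the 3 shallowest libraries, or without the 3 highest in the MIR99B cluster, was chosen after seeing the data and called 0 members.

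The differences in the bta-miR-125a share, in percentage points against the control group, changed sign when a replicate was left out in 8 of 9 comparisons. At 1 h they ranged from -3.33 to 6.02 for CBX, -6.01 to 7.27 for co-culture and -8.99 to 7.23 for DO, at 6 h from -8.09 to 0.67 for CBX and -5.99 to 2.72 for co-culture, and at 22 h from -3.01 to 4.91 for CBX, -2.01 to 1.13 for co-culture and -2.29 to 2.24 for DO. DO at 6 h stayed negative. The ratios of highest to lowest condition for the family sums stayed within 1.5 times, but scaled by deduplicated reads the lowest condition was another one in each family, and the highest of miR-125 and of miR-99/100 was co-culture at 1 h, as it was without replicate 3. Depth limits the miR-99/100 family most, since 3 counts lie within the range of its levels in the shallow libraries.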

Other observations

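For each member with a median of at least 10 counts, the 3 most similar of the 112 other known miRNAs with such a median were listed by Spearman's rho of log2 CPM over the 39 libraries, which share depth and composition within each library. bta-miR-125a was closest to bta-let-7b (0.86), bta-let-7i (0.63) and bta-let-7e (0.59). bta-miR-125b was closest to bta-let-7c (0.68), bta-miR-25 (0.58) and bta-let-7b (0.55), and bta-miR-10b to bta-miR-92a (0.62), bta-miR-507-3p (0.53) and bta-miR-7857-3p (0.42). For bta-miR-99b the list was bta-miR-31 (0.58), bta-let-7b (0.56) and bta-miR-107 (0.56), for bta-miR-10a bta-miR-122 (0.57), bta-let-7a-5p (0.52) and bta-miR-25 (0.51), and for bta-miR-99a-5p bta-miR-202 (0.46), bta-miR-2285bf (0.44) and bta-miR-339a (0.41).

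Among the let-7 neighbours, bta-let-7c had the lowest adjusted p in the contrasts, 0.151 for DO at 22 h against 6 h (log2 fold change 0.85 ± 0.20 SE). In this comparison bta-miR-125b, bta-miR-125a and bta-miR-10a also had an unadjusted p under 0.05. Scaling by deduplicated reads moved the median of all miRNAs in it by -0.41.

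The libraries with the same replicate number resembled each other in some members. bta-miR-125b was lowest in the library numbered 1 in 9 of 13 conditions and highest in the one numbered 3 in 9 of 13. bta-miR-10a was lowest in the library numbered 1 in 8 of 13, and bta-miR-10b was highest there in 8 of 13. bta-miR-125a was lowest in the library numbered 2 in 8 of 13. No number was lowest or highest in more than 6 of 13 for bta-miR-99a-5p or bta-miR-99b. Such counts were not made for other miRNAs, so that nothing particular to the members can be read from them.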
